A study of Homo sapiens with 8 samples.

Results

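HepG2 cells kept in vehicle for 24 h were compared with HepG2 cells kept in vehicle for 12 h, over all genes, in 4 poly-A RNA libraries of the 8 in the series. HepG2 is a human hepatocellular carcinoma line that keeps much of the gene expression of hepatocytes. The libraries were chosen by their titles: 2 had DMSO for 12 h and 2 had DMSO for 24 h, and the remaining 4, from cells given 2 µM benzo[a]pyrene (BaP) for the same times, serve as a second time course. Cells grew in minimal essential medium with serum, and at 80% confluence received fresh medium with 0.5% DMSO (vehicle) or with BaP. Each group holds 2 libraries from independent experiments, as the labels state. Every cell in both vehicle groups had DMSO and new medium, so time since the medium change and time in DMSO cannot be told apart, and no library from before the change was analysed here.

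Fresh medium brings serum growth factors, glucose and amino acids to the cells, and these are used up as the culture stands. Serum growth factors act through the ERK pathway on immediate early genes, insulin and nutrients restrain FOXO transcription factors and their gluconeogenic targets, and low oxygen lets hypoxia-inducible factors switch on genes for glycolysis and vessel growth. Entry into S phase is driven by E2F factors, which bind the promoters of DNA replication genes. These pathways, liver secretory genes and the clock were followed with 48 gene lists.

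Total estimated counts, as deposited, were 13363783 and 14048067 for the vehicle libraries at 12 h and 11844661 and 5590972 for those at 24 h, so that replicate 2 at 24 h was the shallowest vehicle library. Across all 8 libraries the totals ran from 2592272 to 16533490, and mitochondrial genes took 17.1% to 18.7% of the counts. Over 7299 well-counted genes the log2 difference between vehicle replicates had an SD of 0.25 at 12 h and 0.18 at 24 h. All 14 markers of the HepG2 line were measured, and their summed level was 29954 and 31569 CPM (counts relative to the library's total, scaled between libraries) at 12 h and 33871 and 38085 CPM at 24 h. Of the markers of other cells, the macrophage genes CD163, MARCO, C1QA, C1QB and TYROBP and the fibroblast genes DCN and LUM had no counts in any vehicle library. The other untested macrophage markers, PTPRC, CSF1R and CLEC4F, had up to 2 counts in a vehicle library. The other untested fibroblast markers, among them COL1A2, VIM and LRAT, had up to 5. LYZ, a lysozyme gene placed on the macrophage list, was at 509 and 631 CPM at 12 h and 949 and 931 CPM at 24 h. PDGFRB, a receptor on the fibroblast list, was at 17.3 and 15.9 CPM and then at 28.6 and 29.1 CPM. Both were called higher, and each was the called gene of 3 tested on its list, of 11 macrophage and 12 fibroblast markers. LYZ remained called in 1 and PDGFRB in 1 of the 4 fits that leave out a vehicle library. The summed level of the macrophage list was 551 and 670 CPM at 12 h and 988 and 969 CPM at 24 h, and that of the fibroblast list was 100 and 71.8 CPM at 12 h and 107 and 85.9 CPM at 24 h. The cholangiocyte list had the highest sums of the lists of other cells, 1262 and 1077 CPM at 12 h and 1182 and 1104 CPM at 24 h. Of its 7 markers 4 were tested and none was called, with a median change of 0.03. Of 10 endothelial markers 4 were tested and none was called by edgeR's quasi-likelihood or exact test or by DESeq2 (2 had an unadjusted p under 0.05), but 3 had both 24 h libraries above both at 12 h, the median change was 0.81, and the summed level was 6.05 and 5.31 CPM at 12 h and 8.83 and 11.3 CPM at 24 h. Of the untested endothelial genes, KDR, TEK and CLEC4G had no counts in any vehicle library, while VWF and STAB2 had up to 2 in a library. Of 10 lymphocyte markers 4 were tested and none was called by these tests (1 with an unadjusted p under 0.05), while 3 lay higher at 24 h without overlap. The median was 0.56, and the sum was 5.02 and 4.89 CPM and then 7.39 and 6.38 CPM. CD3E was at 0 counts throughout, and the other untested members, CD3G, CD8A, MS4A1, NKG7 and GNLY, had up to 9 in a library. Over all genes tested, 3729 of 14746 lay higher at 24 h without overlap. The part of these markers of other cells in the results below was not tested.

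Between 12 h and 24 h in vehicle, 334 genes rose (2.27%) and 149 fell (1.01%) among 14746 tested, which is 3.28% in all. A gene is called, or said to rise or fall, where its adjusted p in the edgeR quasi-likelihood test was under 0.05. The median change over all genes tested was 0.01 on the log2 scale. The rises were larger, with a median of 0.79 and 105 genes above 2-fold, against a median of -0.62 and 12 genes beyond 2-fold among the falls. In all 483 called genes the 2 libraries at 24 h lay on the same side of the 2 at 12 h, which held for 48.6% of all genes tested. Among the higher calls, replicate 2 at 24 h was above replicate 1 in 265 of 334, and among the lower calls it was below in 101 of 149. This order was not counted over all genes tested, so these counts cannot be read as a trait of the calls. The counts depended on each library, and on the BaP libraries that share the estimate of spread (575 and 423 with replicate 1 of BaP at 24 h left out). Rises and falls numbered 187 and 42 without 12 h replicate 1, 150 and 82 without 12 h replicate 2, 159 and 26 without 24 h replicate 1, and 81 and 6 without 24 h replicate 2. In bulk RNA, a change in the number of cells of a kind and a change in RNA per cell cannot be told apart.

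The 15 largest rises at a mean of 5 CPM or more ranged over several kinds of gene. FOS, the AP-1 transcription factor subunit, was at 1.62 and 2.31 CPM at 12 h and at 22.6 and 30.4 CPM at 24 h (log2 change 3.72 ± 0.37 SE, adjusted p = 0.00067). DEPP1, a FOXO target, went from 57.8 and 57.3 CPM to 211 and 314 CPM (2.18 ± 0.20, adjusted p = 0.00035). IGFBP1, a secreted binding protein for insulin-like growth factors whose liver expression insulin represses, went from 368 and 361 CPM to 1408 and 1852 CPM (2.16 ± 0.17, adjusted p = 7e-06). In these genes every library at 24 h was above both at 12 h, which the rule for naming them required. The gap exceeded the distance between replicates. ROBO4, a guidance receptor known from endothelium, was at 4.65 and 1.75 CPM and then at 13.7 and 15.4 CPM (2.18 ± 0.32), with its 12 h libraries well apart. PIM1, a serine/threonine kinase gene, went from 52.5 and 59.3 CPM to 139 and 230 CPM (1.71 ± 0.25). FILIP1L, TNS1 (an actin-linked adhesion protein), TCIM and PDGFB (a growth factor chain) rose by 1.69 ± 0.14, 1.65 ± 0.17, 1.56 ± 0.15 and 1.5 ± 0.22. The others among the 15 largest rises were EGR1, CCN2, IER3, DUSP5, ZFP36 and ANGPTL4, which are described with their groups.

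**Figure D1:**
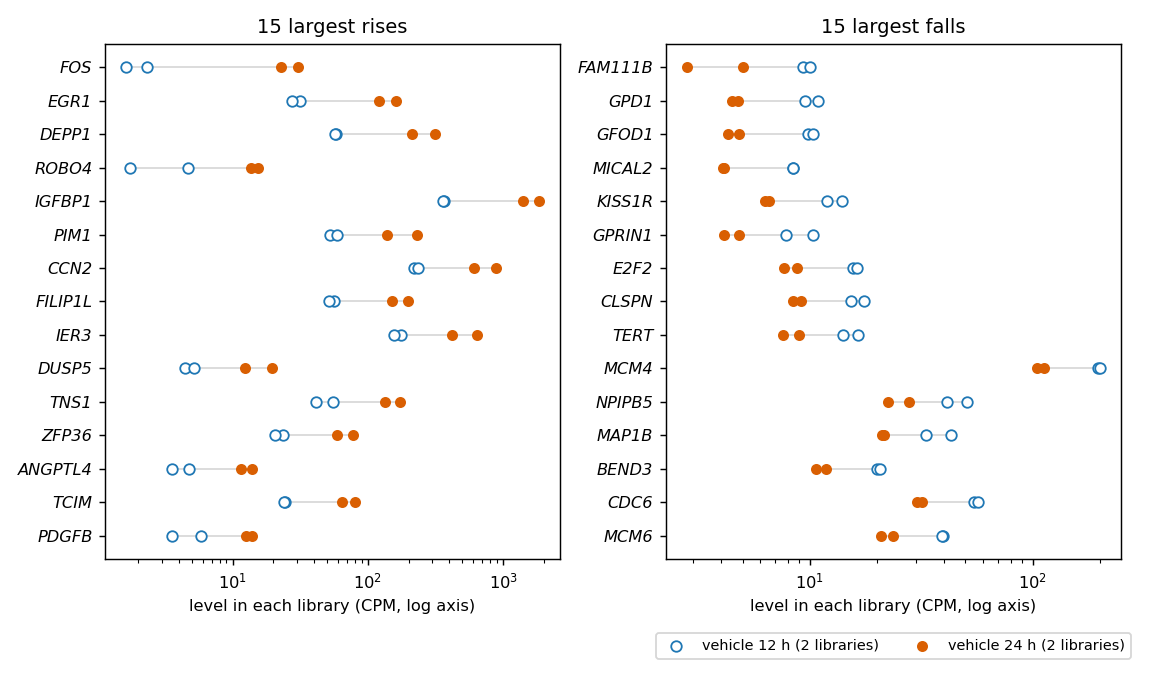
Level of the 15 largest rises (left) and 15 largest falls (right) in each vehicle library, in CPM on a log axis. Open circles are the 2 libraries at 12 h and filled circles the 2 at 24 h. The genes were chosen among those whose 2 times do not overlap, so the separation follows from the choice. FOS was at 1.62 and 2.31 against 22.6 and 30.4 CPM.

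The falls were smaller, and 5 of the 15 largest were members of the DNA replication list. FAM111B, a protease gene of replicating cells, was at 9.30 and 9.99 CPM at 12 h and 5.01 and 2.81 CPM at 24 h (-1.2 ± 0.29, adjusted p = 0.031). GPD1, the cytosolic glycerol-3-phosphate dehydrogenase, went from 10.9 and 9.57 CPM to 4.75 and 4.50 CPM (-1.13 ± 0.22, adjusted p = 0.0073). MICAL2, an actin-oxidising enzyme, went from 8.41 and 8.38 CPM to 4.08 and 4.13 CPM (-1.03 ± 0.25, adjusted p = 0.032). The replicates of GPD1 and MICAL2 were close together at each time, whereas those of FAM111B parted at 24 h. TERT, the telomerase catalytic subunit, fell from 16.5 and 14.1 CPM to 7.56 and 9 CPM (-0.91 ± 0.19). CLSPN, a mediator of the replication checkpoint, fell by 0.92 ± 0.18, and KISS1R, the kisspeptin receptor, by 1.02 ± 0.20. GFOD1, GPRIN1, NPIPB5, MAP1B (a microtubule-associated protein) and BEND3 fell by 1.11, 0.99, 0.85, 0.84 and 0.83. NPIPB5 belongs to a family of near-identical copies, so its count is uncertain. The rises held better than the falls when a library was left out. Of the 15 rises, 13, 13, 15 and 14 were still called without 12 h replicate 1, 12 h replicate 2, 24 h replicate 1 and 24 h replicate 2 in that order, and of the 15 falls 7, 10, 3 and 1. No log2 change of these 30 genes moved by over 1.5 times in those fits.

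Immediate early genes, which growth factors switch on, were often called. Of 26 tested list members 13 rose and none fell, where 2.27% of all genes tested rose, and the median change of the 26 was 0.79 against 0.01 over all genes. EGR1, a zinc finger factor induced by serum, was at 31.4 and 27.5 CPM at 12 h and 120 and 161 CPM at 24 h (2.24 ± 0.17, adjusted p = 1.8e-05). DUSP6, the phosphatase that ERK signalling induces against itself, went from 111 and 112 CPM to 264 and 337 CPM (1.43 ± 0.14, adjusted p = 4.8e-05). ZFP36, which promotes decay of AU-rich messenger RNAs, went from 23.5 and 20.4 CPM to 59.0 and 77.3 CPM (1.62 ± 0.16, adjusted p = 5.1e-05). No library at 12 h reached any library at 24 h in these genes, as in every called rise. IER3 rose by 1.67 ± 0.20 and the ERK phosphatase gene DUSP5 by 1.67 ± 0.31. The other called members, named after their values were seen, were the nuclear receptor NR4A1 (1.12), the AP-1 genes JUN (0.79) and FOSL2 (0.79), KLF6 (0.79), DUSP1 (1.40), the ERK pathway inhibitor SPRY4 (0.95) and IER2 (0.70). MYC, in contrast, was at 271 and 268 CPM at 12 h and 266 and 359 CPM at 24 h (0.21, adjusted p = 0.5), and FOSL1 and ATF3 were at -0.14 and 0.36 without passing the test. The number of rises was 9, 7, 14 and 5 without 12 h replicate 1, 12 h replicate 2, 24 h replicate 1 and 24 h replicate 2, and the list median stayed between 0.56 and 0.93.

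The promoter of EGR1 is shown because EGR1 is the most strongly supported rise of this list and carries the serum response element type that SRF binds. The 300 bases from RefSeq (GRCh38.p14, chr5:138465229-138465528, plus strand) are given 5′ to 3′, with CArG boxes in capitals at -105 and -83.
EGR1: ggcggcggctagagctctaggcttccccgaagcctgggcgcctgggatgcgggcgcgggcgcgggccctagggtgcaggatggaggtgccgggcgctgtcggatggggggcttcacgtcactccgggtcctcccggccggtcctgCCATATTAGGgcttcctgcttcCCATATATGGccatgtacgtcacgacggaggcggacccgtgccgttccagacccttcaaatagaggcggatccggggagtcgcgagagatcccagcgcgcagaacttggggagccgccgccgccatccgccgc
CArG boxes were found in 1.06% of the 15036 promoter windows of tested genes, in 2.48% of the windows of genes that rose and in 2.30% of those of genes that fell. They stood in 1 of 12 windows of the called immediate early genes, so these letters were rare within this distance of the start sites.

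Genes induced by low oxygen had the most rises of any list. All 24 list members were tested, and 15 rose and none fell, with a median of 0.74. LOX, the collagen cross-linking lysyl oxidase, was at 26.3 and 23.8 CPM at 12 h and 58.2 and 72.9 CPM at 24 h (1.37 ± 0.14, adjusted p = 5.6e-05). BNIP3, which directs mitochondria to autophagy, went from 108 and 99.1 CPM to 192 and 216 CPM (0.98 ± 0.11, adjusted p = 0.00019). Replicates of these genes differed by less than the gap between the times. NDRG1, a stress-induced gene, rose by 1.13 ± 0.14. Among the other called members, named after their values were seen, were ANKRD37 (1.34), EGLN3 (1.46), the prolyl hydroxylase that marks hypoxia-inducible factors for decay, INSIG2 (1.07), the peptide hormone gene ADM (1.06), EFNA1 (0.85), BNIP3L (0.84), PDK1 (0.75), which holds pyruvate away from the mitochondria, the vessel growth factor VEGFA (0.74), the collagen hydroxylase subunit P4HA1 (0.69), the histone demethylase KDM3A (0.54) and the mTORC1 inhibitor DDIT4 (0.53). CA9, a cell-surface carbonic anhydrase, was at 18.2 and 9.99 CPM and then at 28.2 and 28.1 CPM, without passing the test (1.00 ± 0.29, adjusted p = 0.12). The messenger RNAs of the factors themselves moved little: HIF1A was at 120 and 133 CPM at 12 h and 134 and 130 CPM at 24 h, and EPAS1 at 218 and 225 against 201 and 234. Without each vehicle library in the order above, 11, 9, 11 and 6 members rose, and the median stayed between 0.65 and 0.79.

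ANKRD37 and BNIP3 are shown as hypoxia targets whose windows hold the letters ACGTG, the core that hypoxia-inducible factors bind, in capitals on either strand. The window of ANKRD37 is chr4:185396591-185396890 on the plus strand, with stretches at -162 and -143, and that of BNIP3 is chr10:131981874-131982173 on the minus strand, with a stretch at -134, both from RefSeq in GRCh38.p14.
ANKRD37: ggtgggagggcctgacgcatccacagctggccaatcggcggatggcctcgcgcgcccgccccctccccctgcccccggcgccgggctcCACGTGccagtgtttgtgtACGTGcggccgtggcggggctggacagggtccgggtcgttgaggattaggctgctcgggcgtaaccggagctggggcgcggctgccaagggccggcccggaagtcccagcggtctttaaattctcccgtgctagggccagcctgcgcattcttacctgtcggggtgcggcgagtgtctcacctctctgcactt
BNIP3: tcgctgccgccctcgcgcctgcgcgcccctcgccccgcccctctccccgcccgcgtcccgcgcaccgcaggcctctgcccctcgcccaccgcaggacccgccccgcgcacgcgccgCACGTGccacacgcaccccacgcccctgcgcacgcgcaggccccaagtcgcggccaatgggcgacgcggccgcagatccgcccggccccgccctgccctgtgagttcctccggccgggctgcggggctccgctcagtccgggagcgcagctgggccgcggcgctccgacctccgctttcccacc
CACGTG holds the core on both strands and is also the E-box that clock and MYC factors bind. The core was in 13 of 25 windows of the tested hypoxia targets (52%) and in 10 of 16 of the called ones (62.5%), against 25.1% of the windows of all genes tested. Among all genes that rose it was in 25.2%, near the share in all genes tested.

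Glycolysis moved in part. Of 22 tested genes 6 rose and none fell, with a median of 0.31. HK2, the hexokinase of growing and tumour cells, was at 115 and 131 CPM at 12 h and 208 and 237 CPM at 24 h (0.85 ± 0.12, adjusted p = 0.00099). PFKFB3, which makes the activator of phosphofructokinase, went from 24.3 and 17.7 CPM to 44.5 and 41.3 CPM (1.04 ± 0.16, adjusted p = 0.0016). ALDOC and PFKFB4 rose by 0.79 ± 0.14 and 0.80 ± 0.16, and PGK1 and the glucose transporter SLC2A1, named after their values were seen, by 0.59 and 0.58. GAPDH and LDHA were 0.28 and 0.24 higher without passing the test. The number of rises was 4, 2, 2 and 2 without each library in the same order. Of genes that follow glucose supply, 2 of 10 tested fell, namely GPD1 and TXNIP, the thioredoxin-binding arrestin whose messenger RNA tracks glucose in the cell. TXNIP was at 49.8 and 48.3 CPM at 12 h and at 34.9 and 21.0 CPM at 24 h (-0.77 ± 0.19, adjusted p = 0.041), and its change was -0.49 without 24 h replicate 2 (adjusted p = 0.37) and -1.22 without 24 h replicate 1. GPD1 had an adjusted p of 0.051 without 12 h replicate 1 and 0.1 without either 24 h library. The 24 h libraries of TXNIP lay about as far from each other as the higher of them lay from 12 h.

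Genes that insulin holds down through FOXO were called upwards in part. Of 21 tested members 7 rose and none fell, with a median of 0.60. PPARGC1A, the coactivator of gluconeogenic and mitochondrial genes, was at 15.6 and 15.3 CPM at 12 h and 30.7 and 41.4 CPM at 24 h (1.2 ± 0.17, adjusted p = 0.00097). FOXO1 itself went from 35.5 and 40.7 CPM to 61.4 and 70.1 CPM (0.78 ± 0.13, adjusted p = 0.0029). BCL6, a transcriptional repressor that FOXO factors induce, went from 53 and 51.2 CPM to 78.0 and 97.9 CPM (0.75 ± 0.13, adjusted p = 0.0036). PPARGC1A, BCL6 and IGFBP1 had close replicates at 12 h and a higher replicate 2 at 24 h. In FOXO1 replicate 2 was the higher at both times. PCK1, the rate-limiting enzyme of gluconeogenesis, stayed low, at 1.92 and 1.05 CPM and then 4.50 and 3.38 CPM (1.45 ± 0.37, adjusted p = 0.04). Its adjusted p was 0.21 without 12 h replicate 2, 0.4 without 24 h replicate 1 and 0.14 without 24 h replicate 2. TRIB1 and CITED2, named after their values were seen, rose by 0.60 and 0.87, and G6PC1, the glucose-6-phosphatase, was 0.54 higher without passing the test (adjusted p = 0.32). The number of rises was 6, 4, 5 and 2 without each library in the same order. In the insulin-like growth factor axis, IGFBP3 went from 0.738 and 0.908 CPM to 4.75 and 6.94 CPM (2.76 ± 0.33, adjusted p = 0.00021). IGF2, the abundant fetal growth factor of this line, was at 7798 and 6716 CPM and then at 7906 and 6903 CPM (0.03, adjusted p = 0.97).

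**Figure D2:**
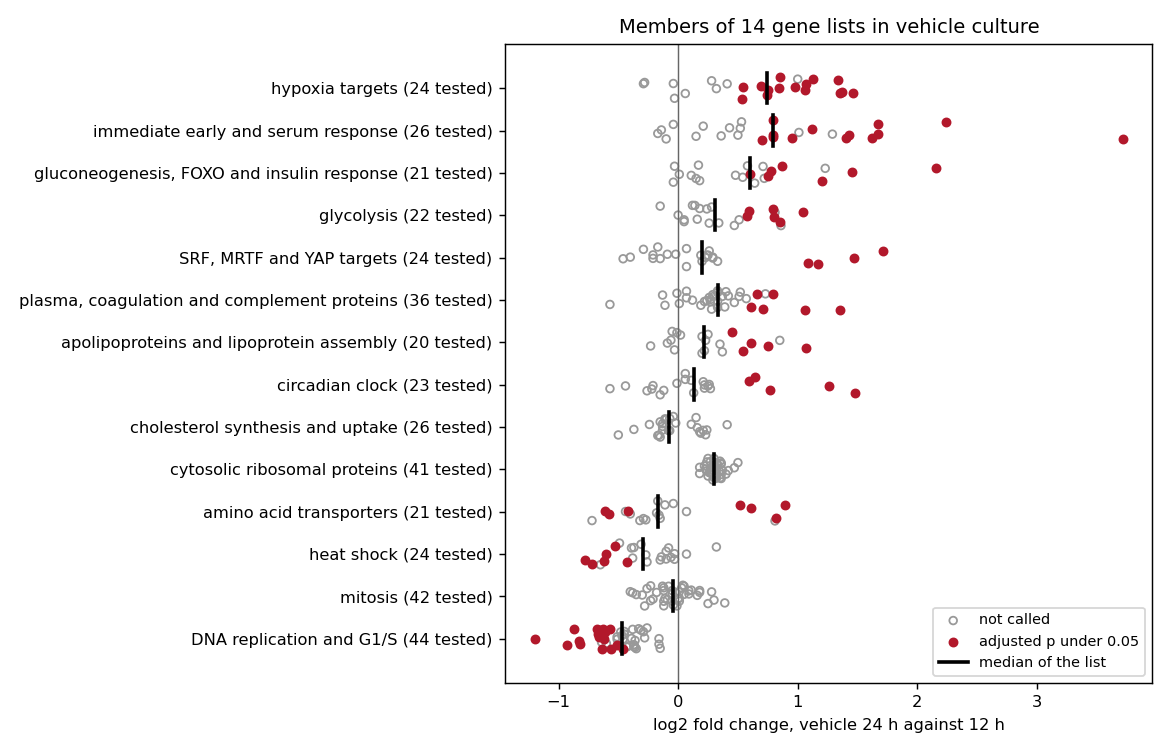
Log2 fold change between 24 h and 12 h in vehicle for the tested members of 14 lists. Filled points passed the test, open points did not, and bars are list medians, from 0.79 in immediate early genes to -0.47 in DNA replication, while no member of the mitosis, cholesterol or ribosomal protein lists passed.

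Targets of the cytoskeleton-linked factors SRF and YAP split. Of 24 tested, 4 rose, none fell, and the median was 0.20. CCN2, a matricellular growth factor gene, was at 219 and 236 CPM at 12 h and 606 and 884 CPM at 24 h (1.71 ± 0.20, adjusted p = 0.0005). CCN1, its relative, went from 23.2 and 21.1 CPM to 44.2 and 81.4 CPM (1.47 ± 0.27, adjusted p = 0.029). CCN1 was the less even of the pair, with replicate 2 at 24 h far above replicate 1, and its adjusted p was 0.12 without 12 h replicate 1 and 0.15 without 12 h replicate 2. TPM2, a tropomyosin, and ANKRD1, a muscle-type ankyrin repeat protein, rose by 1.17 ± 0.17 and 1.09 ± 0.16. The actin gene ACTB was at 3418 and 3176 CPM and then at 3574 and 4021 CPM (0.20, adjusted p = 0.61).

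Secreted liver products had a positive median, with few members called. Of 36 tested plasma, coagulation and complement genes 6 rose and none fell, with a median of 0.33. ITIH3, an inhibitor heavy chain of plasma, was at 55.5 and 50.6 CPM at 12 h and 105 and 117 CPM at 24 h (1.06 ± 0.11, adjusted p = 7.9e-05). Complement C5, fibrinogen FGA and complement factor CFB rose by 0.71 ± 0.11, 0.79 ± 0.13 and 0.66 ± 0.11. SERPIND1 (0.61) and TTR (1.35), named after their values were seen, also rose, and albumin (ALB) was at 2276 and 2436 CPM and then at 2619 and 3098 CPM without passing (0.28, adjusted p = 0.44). Without each library in the same order, 5, 3, 4 and 2 of the plasma genes rose. Among 20 apolipoprotein and lipoprotein assembly genes, 5 rose and none fell. APOM, which carries sphingosine-1-phosphate, went from 130 and 116 CPM to 241 and 277 CPM (1.07 ± 0.16, adjusted p = 0.0024). APOC1, APOC2, APOC3 and APOA2 (the last named after its values were seen) rose by 0.61, 0.54, 0.45 and 0.75, and in each of the 4 fits that leave out a vehicle library 1 member of this list was called. FABP1 and ANGPTL4, fatty acid genes under PPARA, rose by 0.86 ± 0.14 and 1.59 ± 0.22, and they were the called members of 22 tested in fatty acid oxidation.

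Liver transcription factors went both ways. NR0B2 (SHP), the repressor that bile acid signalling induces, was at 98.9 and 94.9 CPM at 12 h and 207 and 256 CPM at 24 h (1.25 ± 0.16, adjusted p = 0.00077). CEBPD rose from 13.0 and 9.85 CPM to 22.9 and 21.4 CPM (0.96 ± 0.17, adjusted p = 0.0051), while CEBPA, the C/EBP factor of quiescent hepatocytes, fell from 105 and 96.3 CPM to 69.9 and 60.6 CPM (-0.62 ± 0.12, adjusted p = 0.0067). The 2 related factors therefore moved in opposite directions. FOXA3 and NR1H3, named after their values were seen, rose by 0.54 and 0.56, and HNF4A was at 224 and 223 CPM and then 216 and 198 CPM (-0.11, adjusted p = 0.74). Of 24 tested factors 5 rose and 1 fell, against 3 and 0, 2 and 1, 2 and 1, and 3 and 0 without each library in the same order.

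Clock genes were called outside the core period genes. Of 23 tested, 5 rose and none fell. BHLHE40, a repressor that serum and hypoxia also induce, was at 91.4 and 73.0 CPM at 12 h and 188 and 208 CPM at 24 h (1.26 ± 0.12, adjusted p = 4.8e-05). RORA went from 3.47 and 3.84 CPM to 9.85 and 10.7 CPM (1.48 ± 0.24), and NFIL3 and HLF, which act on D-box sites, rose by 0.77 ± 0.14 and 0.59 ± 0.13. NR1D1, the heme-binding repressor of the clock, was at 24.8 and 23.1 CPM and then 33.2 and 42.4 CPM (0.64 ± 0.16, adjusted p = 0.04), a call that was lost on leaving out any of the 4 vehicle libraries (adjusted p 0.057 to 0.48). PER1, PER2 and DBP, the period genes and a classical clock output, were at 0.06, -0.22 and -0.15, with adjusted p of 0.91, 0.45 and 0.85. The number of rises was 3, 3, 3 and 2 without each library in the same order.

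Amino acid transporters moved in opposing groups. SLC38A2, which takes up neutral amino acids with sodium, was at 361 and 441 CPM at 12 h and 653 and 833 CPM at 24 h (0.89 ± 0.16, adjusted p = 0.0039). SLC1A4 fell from 83.3 and 82.0 CPM to 56.9 and 50.8 CPM (-0.61 ± 0.11, adjusted p = 0.0059). SLC7A5, the light chain of the large neutral amino acid exchanger, fell from 918 and 915 CPM to 605 and 619 CPM (-0.58 ± 0.15, adjusted p = 0.044), and its heavy chain SLC3A2 fell by 0.42, the latter under a name that 2 gene IDs carry. SLC1A2, SLC43A2 and SLC7A2 rose by 0.82, 0.61 and 0.52. SLC7A2, SLC7A5 and SLC3A2 are named here after their values were seen. In all, 4 of 21 rose and 3 fell, against 1 and 1, 2 and 1, 1 and 1, and 0 and 0 without each library in the same order. The amino acid response regulated by ATF4 showed no such movement in its best-known target: ASNS, asparagine synthetase, was at 27.7 and 34 CPM and then 28.4 and 38.6 CPM (0.09, adjusted p = 0.93), and PPP1R15A (1.04), DDIT4 and STC2 (0.46) were the called members of 23 tested. Without each library in the same order 0, 0, 1 and 0 of the 23 were called, and none with all libraries thinned to the shallowest.

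Of 24 tested heat shock genes, which encode mostly cytosolic chaperones, 6 fell and none rose, where 1.01% of all genes fell, and the median was -0.29. HSPA8, the constitutive HSP70, was at 1176 and 1152 CPM at 12 h and 745 and 663 CPM at 24 h (-0.72 ± 0.14, adjusted p = 0.0095). HSPH1, an HSP70 exchange factor, went from 82.1 and 94.3 CPM to 58.5 and 56.3 CPM (-0.62 ± 0.12, adjusted p = 0.0073), and HSP90AA1, the inducible HSP90, from 945 and 1082 CPM to 696 and 639 CPM (-0.60 ± 0.14, adjusted p = 0.03). The libraries of each time were separate in all of these, as in every called gene. HSPA1B (-0.78) and HSPA1A (-0.53) are near-identical copies, so the split between them is uncertain, and AHSA1, an HSP90 cochaperone, was at -0.43; HSPA1A and AHSA1 are named after their values were seen. The endoplasmic reticulum chaperone HSPA5 was at 754 and 720 CPM and then 762 and 744 CPM (0.03, adjusted p = 0.95). Without each library in the same order, 2, 3, 1 and 0 heat shock genes fell, while the median stayed between -0.30 and -0.24.

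DNA replication genes gave the most falls of any list. Of 44 tested members 17 fell, none rose, and none had a positive change. The median was -0.47, and the libraries of the 2 times were separate, lower at 24 h, in 40 of the 44. Over all genes tested this held for 3441 of 14746. MCM4, MCM5 and MCM6 encode subunits of the replicative helicase. MCM4 was at 196 and 201 CPM at 12 h and 112 and 105 CPM at 24 h (-0.87 ± 0.12, adjusted p = 0.00086), and MCM6 at 39.8 and 39.3 CPM and then 23.6 and 20.8 CPM (-0.82 ± 0.14, adjusted p = 0.0038). CDC6, which loads that helicase, went from 54.7 and 56.7 CPM to 32.0 and 30.4 CPM (-0.83 ± 0.13, adjusted p = 0.0019). In these genes replicates lay within a few percent at 12 h. E2F2, a factor that switches on such genes, went from 15.6 and 16.3 CPM to 8.75 and 7.69 CPM (-0.93 ± 0.18, adjusted p = 0.0076). MCM5 fell by 0.68 ± 0.12 and MCM2 by 0.51 ± 0.12. The other called members, named after their values were seen, were the polymerase subunit POLE (-0.61), the chromatin assembly genes CHAF1A (-0.62) and CHAF1B (-0.64), the origin protein ORC1 (-0.67), the flap nuclease FEN1 (-0.66), the ligase LIG1 (-0.57), GINS2 (-0.56), GINS3 (-0.66), CDC45 (-0.63) and MCM3 (-0.46). The names MCM5, POLE and LIG1 are carried by more than 1 gene ID, and the value is that of the ID tested. PCNA, the sliding clamp, was at 249 and 286 CPM and then 196 and 187 CPM, just outside the threshold (-0.48 ± 0.13, adjusted p = 0.055). The number of falls was 6, 9, 4 and 1 without each library in the same order, 33 with a correction for GC content and mRNA length, and 28 without BaP 24 h replicate 1 in the fit, and over the vehicle libraries left out the median stayed between -0.51 and -0.46.

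MCM6 is shown because its window holds E2F sites (TTTGGCGC or TTTCGCGC on either strand, in capitals). It comes from RefSeq in GRCh38.p14, chr2:135876394-135876693 on the minus strand, and both stretches, at -152 and -90, read the same 12 letters and hold a site on each strand.
MCM6: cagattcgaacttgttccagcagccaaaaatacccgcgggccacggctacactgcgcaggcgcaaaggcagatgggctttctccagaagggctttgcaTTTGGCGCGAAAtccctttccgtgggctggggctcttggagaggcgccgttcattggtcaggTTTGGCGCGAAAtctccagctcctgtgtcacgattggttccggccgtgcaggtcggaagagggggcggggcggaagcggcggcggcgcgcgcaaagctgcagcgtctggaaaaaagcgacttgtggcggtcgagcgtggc
E2F sites of these letters were in 13 of 46 windows of the tested replication genes (28.3%) and in 6 of 16 of the called ones (37.5%), against 1.78% of the windows of all genes tested. Over all genes that fell the share was 6.90%, and over all genes that rose 0.495%. Of the 12 such windows among genes that fell, 6 belonged to the replication list. The E2F motif was added to those first planned, so these shares are a description only.

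No gene of mitosis passed the edgeR quasi-likelihood test among 42 tested. At an unadjusted p under 0.05 there were 5, and DESeq2 called 2 and the exact test 1, all lower. The median was -0.04, and 18 had a positive change. CCNB1, the mitotic cyclin, was at 106 and 98.2 CPM at 12 h and 97.0 and 95.8 CPM at 24 h (-0.08 ± 0.13, adjusted p = 0.81), and PLK1, a mitotic kinase, was at 382 and 294 CPM and then 271 and 286 CPM (-0.28, adjusted p = 0.33). The difference between the replication and mitosis lists was not tested. Of the G1 cyclins and their inhibitors, 1 of 20 fell, the cyclin CCND3 (-0.55, adjusted p = 0.048), and this call was lost on leaving out any of the 4 vehicle libraries (adjusted p 0.065 to 0.47). The p53 list had 1 call of 32, the stress hormone GDF15, which went from 287 and 291 CPM to 521 and 910 CPM (1.31 ± 0.27, adjusted p = 0.029). The adjusted p of GDF15 was 0.13 without either 12 h library, 0.14 without 24 h replicate 2 and 0.12 with the vehicle libraries alone, so that the call was lost in each. CDKN1A was at 113 and 81.7 CPM and then 120 and 116 CPM (0.27, adjusted p = 0.39).

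**Figure D3:**
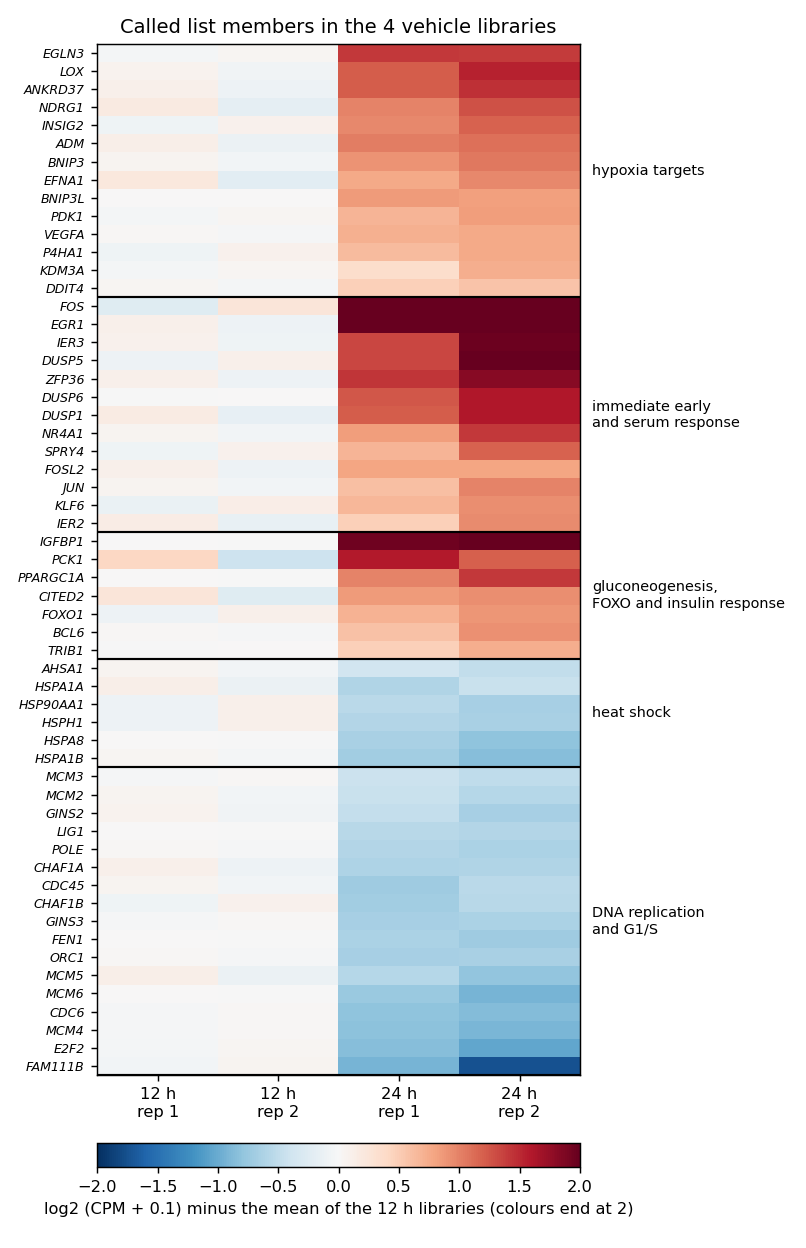
Called members of 5 lists (57 genes are drawn, not every called member) in the 4 vehicle libraries, as log2 (CPM + 0.1) minus the mean of the 12 h libraries, with red above and blue below that mean and colours ending at 2. The 12 h columns are centred on their own mean, so their pale colour is no measure of how close those replicates are. Replicate 2 at 24 h is the deeper red in most immediate early genes, as in DUSP6 at 337 against 264 CPM in replicate 1.

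CYP1A1, the BaP-metabolising enzyme that the aryl hydrocarbon receptor induces, was already low in vehicle at 12 h and lower at 24 h. Its libraries were at 6.57 and 3.49 CPM and then at 1.61 and 1.5 CPM (-1.66 ± 0.36, adjusted p = 0.019). The 12 h libraries were well apart from each other, and the adjusted p was 0.14 without 12 h replicate 1, 0.21 without 24 h replicate 1 and 0.15 without 24 h replicate 2. CYP1A1 and SLC7A5 were the called genes among 15 tested targets of this receptor, and AKR1B10 (-0.77 ± 0.16) was the called gene among 26 NRF2 targets. ODC1, the entry enzyme of polyamine synthesis, went from 301 and 296 CPM to 203 and 195 CPM (-0.58 ± 0.13, adjusted p = 0.022), a call lost on leaving out any vehicle library (adjusted p 0.074 to 0.29). The call of AKR1B10 was lost without 12 h replicate 2 (adjusted p = 0.084) and without 24 h replicate 1 (0.33). SAT1, which acetylates polyamines for export, went the other way, from 162 and 152 CPM to 346 and 423 CPM (1.29 ± 0.17, adjusted p = 0.00086).

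Several lists had no called member in either direction by edgeR's quasi-likelihood test. Cholesterol synthesis and uptake had none of 26 (3 with an unadjusted p under 0.05), with HMGCS1 at 43.1 and 52.7 CPM at 12 h and 47.8 and 46.5 CPM at 24 h (-0.02, adjusted p = 0.97). The interferon (25 tested), WNT (16), aminoacyl-tRNA synthetase (20), respiratory chain (35), mitochondrially encoded (13), metallothionein (11) and iron (16) lists also had none, with 4, 4, 3, 4, 1, 6 and 3 members at an unadjusted p under 0.05. The exact test of edgeR called 1 lower gene each in the cholesterol, interferon and iron lists, 1 higher and 1 lower in WNT, 1 higher among the synthetases, and 1 higher and 2 lower among the metallothioneins. DESeq2 called 1 of these, a metallothionein list member that was lower. Of the 35 respiratory chain genes 29 had a positive change, with a median of 0.19. Without overlap, 20 of them lay higher at 24 h and 2 lower, where 3729 and 3441 of all 14746 genes tested did. With the vehicle libraries alone 4 of the 35 were called higher and 0 lower. All 41 cytosolic ribosomal protein genes tested had a positive change, with a median of 0.30 and a range of 0.18 to 0.50, yet none passed the test (5 at an unadjusted p under 0.05), while DESeq2 called 2 and the exact test 1, all higher.

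The scale of these genes relative to each other is given in TPM, which takes gene length into account and was scaled from the deposited fractions. IGFBP1 was at 274 and 259 TPM at 12 h and 1023 and 1258 TPM at 24 h, and ALB, at 2314 and 2381 and then 2585 and 2875 TPM, remained above it. APOA2, at 7529 and 6157 TPM and then at 10642 and 11309 TPM, had the highest level of the called genes named here. FOS, with the largest rise of the called genes at 5 CPM or more, stayed at a low level, 0.931 and 1.28 TPM at 12 h and 12.6 and 15.9 TPM at 24 h.

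The same 12 h interval was then read in the 4 BaP libraries, which share no library with the vehicle groups but share the estimate of spread. Any other difference in handling between 12 h and 24 h that both cultures had cannot be told apart from time. In BaP 2573 genes were called between 24 h and 12 h (17.4%), 1490 higher and 1083 lower. Of the 483 genes called in vehicle, 373 were called the same way in BaP, which is 77.2% of the vehicle calls and 14.5% of the BaP calls, and none was called the opposite way. They were 265 rises and 108 falls, and 471 of the 483 had the same sign. Leaving out a vehicle library reduced the shared calls to 193 (12 h, replicate 1), 182 (12 h, replicate 2), 159 (24 h, replicate 1) or 78 (24 h, replicate 2), and leaving out BaP replicate 1 at 24 h raised them to 690. IGFBP1 rose by 1.96 in BaP against 2.16 in vehicle, CCN2 by 1.70 against 1.71, and NR0B2 by 1.25 in both. MCM4 changed by -1.08 in BaP and -0.87 in vehicle, and MCM6 by -0.83 and -0.82. Hypoxia targets had 14 rises of 24 in BaP with a median of 0.67, immediate early genes 11 rises and 1 fall of 26 with a median of 0.27, and replication genes 28 falls of 44 with a median of -0.63. FOS rose by 1.51 in BaP and 3.72 in vehicle, and EGR1 by 1.35 and 2.24, and for neither was the difference called. The cholesterol list, with no call in vehicle, had 15 falls of 26 in BaP and a median of -0.48, and none of its members had a called difference.

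**Figure D4:**
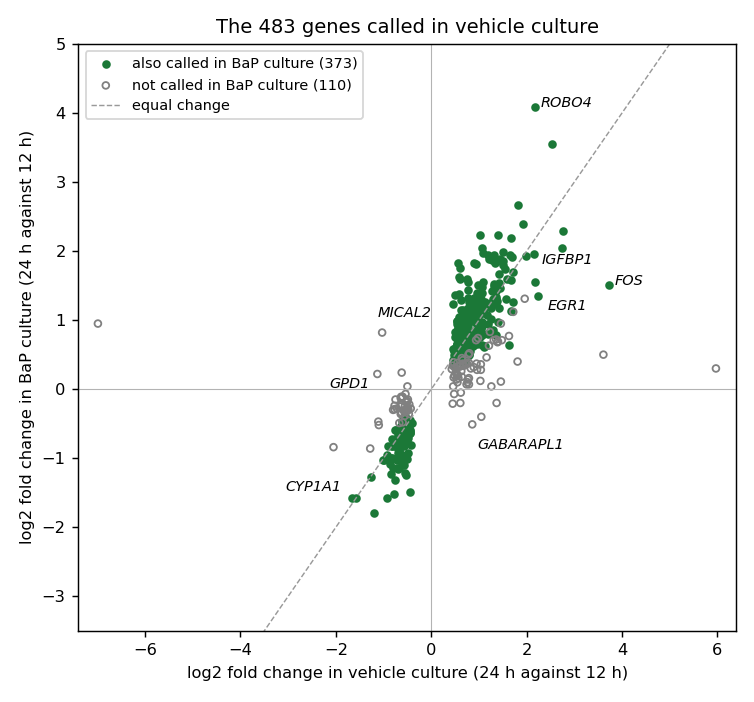
Log2 fold change between 24 h and 12 h in BaP (vertical axis) against that in vehicle (horizontal axis) for the 483 genes called in vehicle. The 373 filled points were also called in BaP, 110 open points were not, and the dashed line marks equal change, with MICAL2 and GABARAPL1 among the few on opposite sides of 0.

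The test of the difference between the 2 time changes called 80 of 14746 genes (0.543%). The log2 change in BaP minus that in vehicle was positive in 68 and negative in 12. Here and below, larger means a positive and smaller a negative difference, so a gene that fell further in BaP counts as smaller. Of the 483 vehicle calls 7 were among them (1.45%), in tests that share the vehicle libraries, and those named here were chosen after their values were seen. MICAL2 fell in vehicle and was at 2.56 and 3.00 CPM at 12 h and 7.13 and 4.21 CPM at 24 h in BaP (difference 1.86 ± 0.39, adjusted p = 0.036). GABARAPL1, an autophagosome protein gene, rose in vehicle from 5.98 and 6.78 CPM to 10.4 and 13.3 CPM (0.86 ± 0.20), while in BaP it was at 22.9 and 19.9 CPM and then 12.0 and 16.3 CPM (difference -1.37 ± 0.28, adjusted p = 0.03). UTRN, the dystrophin relative utrophin, rose in vehicle from 99.5 and 110 CPM to 189 and 239 CPM, and in BaP from 42.3 and 45.4 CPM to 205 and 208 CPM (difference 1.21 ± 0.18, adjusted p = 0.0031). The libraries of the 2 cultures overlapped in UTRN at 24 h and lay apart at 12 h, as they did in ABTB3 (difference 1.26) and STK39 (1.13). ENSG00000172070, a gene ID with no name in the tables used, fell more in BaP (-1.04). GPD1, at -1.13 in vehicle and 0.22 in BaP, did not pass (adjusted p = 0.062). The number of larger and smaller differences depended on single libraries, and the fit without vehicle 12 h replicate 2 is not listed here. With the shallowest library (replicate 1 of BaP at 24 h) left out, 249 were larger and 99 smaller in BaP. With replicate 2 of BaP at 24 h left out there were 73 and 21. Leaving out the BaP libraries at 12 h gave 28 and 6 (replicate 1) or 43 and 7 (replicate 2). Leaving out vehicle libraries gave 43 and 9 (12 h, replicate 1), 24 and 4 (24 h, replicate 1) or 38 and 7 (24 h, replicate 2).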

How the data were processed

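Libraries were made from poly-A RNA, and gene-level estimated (expected) counts and the fraction of transcripts per gene were deposited by the authors, who used RSEM 1.1.7 with Bowtie 0.12.7 per the submitters' processing notes. Those notes also list edgeR. No source used here names the genome build. Of 49733 Ensembl gene IDs 85% matched a name. Expected counts were rounded to whole numbers and the deposited fractions scaled to TPM. Genes kept by filterByExpr (minimum count 10, minimum total 15) were fitted with edgeR 4.0.16 (TMM scaling, robust quasi-likelihood F-test, two-sided) over all 8 libraries with 1 mean per group. P-values were adjusted by Benjamini-Hochberg over all genes tested, with a threshold of 0.05. CPM uses the TMM-scaled library totals, a standard error is the log2 fold change divided by the square root of F, and the fit was tested on simulated data, where more of the calls were false than the threshold nominally allows, so calls near the threshold are less certain than their adjusted p. With 2 libraries a group, precision is limited, as is depth at 24 h: 3 counts are 0.537 CPM in replicate 2 and 0.253 CPM in replicate 1, for counting error only.

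Named genes were the 15 largest rises and 15 largest falls among called genes with a symbol, a mean of 5 CPM and separate groups, in each list up to 4 members by smallest p, 18 genes of the pathways above, and for the difference between cultures the 5 largest each way. The comparison, lists and rules were chosen with earlier results of these data known, so the list counts are descriptions and no list was tested. Alternatives were DESeq2 1.42.0 size factors and Wald test, no count filter, edgeR's exact test, the vehicle libraries alone, thinned counts, a replicate block and each library left out. A GC and length correction (mgcv 1.9.3) and the fit without BaP 24 h replicate 1 were added after seeing the data. Promoter windows are RefSeq's (GRCh38.p14), from 250 bases before to 50 after a start site, and some genes have several. They were not placed on the files' build. Other motifs searched, on both strands, were the sterol element CACCCCAC, the D-box TTATGTAA, the AHR core GCGTG, the box CCAAT and the cyclic AMP element TGACGTCA. The CArG box, the E2F site and the cyclic AMP element were not in the first plan and were added to it. Isoform files were not used, and a few genes are not reported here.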

Additional observations from a re-analysis of the deposited data

Results flagged for a closer look

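The change between 12 h and 24 h differed between BaP and vehicle culture by the test of the difference itself in the genes listed here, as log2 change in BaP minus that in vehicle. Of the genes called in vehicle, the values were 1.86 for MICAL2, -1.37 for GABARAPL1, 1.26 for ABTB3, 1.21 for UTRN, -1.04 for ENSG00000172070 and 1.13 for STK39. Among the largest differences over all genes were those in genes that were not called in vehicle. HMOX1, heme oxygenase, was at 44.4 and 36.1 CPM at 12 h and 32.6 and 28.5 CPM at 24 h in vehicle, and at 116 and 133 CPM and then 37.5 and 23.8 CPM in BaP (-1.75 ± 0.25, adjusted p = 0.0039). GCLM, the modifier subunit of glutathione synthesis, differed by -1.51, ENSG00000249315 by -2.05 and ENSG00000235852 by -1.71. ENSG00000235428 (-8.60) had no counts in the BaP 24 h libraries, so its value is no measure of size.

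In the other direction SNX29 was at 20.3 and 21.2 CPM and then 19.1 and 21.2 CPM in vehicle, and at 0.232 and 1.00 CPM and then 6.00 and 6.29 CPM in BaP (3.21 ± 0.41, adjusted p = 0.00091). BTBD9 differed by 2.32 ± 0.46, SHANK2 by 2.24 ± 0.20 and the antisense transcript CERS6-AS1 by 4.64 ± 0.73. In BaP at 12 h BTBD9 was at 0.814 and 0.539 CPM and CERS6-AS1 at 0.116 and 1.46 CPM. These levels are near 0, so the sizes of both differences are uncertain. In SNX29 and SHANK2 the vehicle libraries of the 2 times overlapped, and those in BaP did not.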

How the results depend on the processing

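Of the 30 largest rises and falls, 13 were called in every alternative (FOS, EGR1, DEPP1, IGFBP1, CCN2, FILIP1L, IER3, TNS1, ZFP36, ANGPTL4, TCIM, PDGFB and MCM4), and none changed direction in any of them. Depth (the shallowest vehicle library is replicate 2 at 24 h) and 2 libraries a group limit these results. The replicate numbers did not pair the vehicle groups (correlation of deviations -0.04 over 7299 genes), whereas those of vehicle and BaP at 12 h correlated at 0.42. With the replicate block 336 genes were higher and 143 lower, and 67 differences between cultures were larger and 13 smaller, within 1.5 times of the counts without it. Of the genes named by the rules above, the block ended the calls of RRP12, UBTF, CCND3, SLC7A5 and ERBB3 (adjusted p 0.06, 0.058, 0.052, 0.065 and 0.057). Further genes named here lost their calls with it, as list counts show. Lower genes numbered 4 with and 6 without the block in heat shock, 1 and 3 among amino acid transporters and 16 and 17 in replication. Higher genes numbered 12 and 13 in immediate early, 5 and 6 in glycolysis, 4 and 5 in apolipoprotein and 4 and 5 in liver factor lists. Rises were added, at 3 and 2, 3 and 2, and 1 and 0, in the acute phase, amino acid breakdown and synthetase lists. The cause of the shifts below was not tested.

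Higher and lower genes numbered 205 and 51 with all libraries thinned to the shallowest (6 lower by over 2-fold, 3 heat shock and 7 replication genes lower, 197 shared with BaP, 43 and 6 differences), and 511 and 342 with the vehicle libraries alone (26 beyond 2-fold lower). Lower genes were 341 without the filter (39 beyond 2-fold; 171 and 69 differences), 271 by the exact test (30), and 283 with the vehicle libraries thinned and alone (23). DESeq2 called 64 higher and 3 lower by over 2-fold. With the GC and length correction the values were 587 and 477 (21 lower by over 2-fold, 10 heat shock, 33 replication, 754 shared, 151 and 64 differences), and with the replicate block as well 604 and 489 (25, 10, 31, 759, 165 and 76).

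Over the fits without 1 library, including BaP 24 h replicate 1, the ranges were 81 to 575 higher, 6 to 423 lower, 49 to 129 higher and 4 to 30 lower by over 2-fold, 5 to 15 immediate early, 2 to 8 glycolysis, 6 to 16 hypoxia and 2 to 8 FOXO genes higher, 0 to 10 heat shock and 1 to 28 replication genes lower, 78 to 690 shared with BaP, and 24 to 249 larger and 4 to 99 smaller differences.

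Among the named genes, the sign changed in these alternatives only for genes that did not pass the test. With all libraries thinned they were HMGCS1 (0.15), PER1 (-0.09), DBP (0.06), ASNS (-0.05), ALAS1 (0.04) and EPB41L4A-AS1 (-0.16). Over the fits without 1 library the ranges that crossed 0 were -0.12 to 0.32 for ASNS, -1.55 to 0.12 for COL1A1, -1.47 to 0.18 for LYVE1, -0.83 to 1.03 for CD79A, -0.47 to 0.21 for KRT19, -0.16 to 0.10 for HMGCS1 and -0.09 to 0.18 for PER1.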

Other observations

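Other gene groups of the vehicle culture had few called members. ICAM1, a leukocyte adhesion molecule, was at 94.7 and 88.4 CPM at 12 h and 160 and 177 CPM at 24 h (0.88 ± 0.12, adjusted p = 0.00059), and TNFAIP3, a feedback inhibitor of NF-kB, rose by 0.78 ± 0.13, as the called members of 16 tested acute phase and NF-kB genes. ERRFI1, an inhibitor of the EGF receptor, went from 223 and 264 CPM to 422 and 530 CPM (0.97 ± 0.15, adjusted p = 0.0016), and the receptor ERBB3 rose by 0.46 ± 0.12. WIPI1, an autophagosome formation gene, went from 22.1 and 22.6 CPM to 42.2 and 52.5 CPM (1.07 ± 0.15, adjusted p = 0.00099). The sulfotransferase SULT2A1 rose by 1.1 ± 0.19 and SULT1A1 by 0.49 ± 0.12, as the called members of 15 tested drug metabolism genes. In amino acid breakdown BCKDHA rose by 0.80 ± 0.14. In fatty acid synthesis ACSL3 rose by 0.64 ± 0.14 and DGAT2, which completes triglyceride synthesis, fell by 0.49 ± 0.12. In ribosome biogenesis RRP12 and UBTF were the 2 called of 29, both lower, with a list median of -0.22, and neither was called on leaving out any vehicle library (adjusted p 0.064 to 0.36 for RRP12 and 0.11 to 0.36 for UBTF). In the order 12 h replicate 1, 12 h replicate 2, 24 h replicate 1 and 24 h replicate 2, leaving out a library gave 0, 1, 1 and 0 calls in drug metabolism, 2, 2, 1 and 0 among EGF receptor ligands and receptors, 3, 2, 2 and 1 in the acute phase list, and 0, 1, 1 and 0 in fatty acid synthesis.

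Genes spanning over 300 kb (395 tested) had a median change of 0.11, with 14 higher (3.54%, where 2.27% of all genes tested were higher) and 0 lower by edgeR's adjusted p, and genes of up to 30 kb (6989 tested) had a median of 0.01. PNMA6A, with 0, 0, 11 and 2 counts in the vehicle libraries in the order 12 h then 24 h, was called at counts near 0 and is named after its values were seen.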
